A study of Mus musculus with 7 samples.

Results

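The Reg family comprises small secreted C-type lectins, and its 7 mouse genes Reg1, Reg2, Reg3a, Reg3b, Reg3d, Reg3g and Reg4 were examined here in purified Paneth cells (PCs), the granulated secretory cells of the small intestinal crypt base. The members were taken by symbol and matched to Ensembl identifiers, which found all 7 among the 55414 genes of the count table. The mice were of the C57BL/6J strain and received either tumour necrosis factor (TNF), an inflammatory cytokine, or phosphate-buffered saline (PBS), the control, and PCs were sorted from the small intestine 15 h later. The PBS group had 3 libraries and the TNF group had 4, each from its own mouse according to the series description. No genetic modification is listed for either group. The sources used here do not give the dose or route of injection, the age and sex of the mice, the length of intestine taken, the sort markers or any dates.

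REG3 lectins are antimicrobial peptides (AMPs): REG3γ binds peptidoglycan of Gram-positive bacteria, REG3β acts mainly on Gram-negative bacteria, and both help to keep bacteria away from the epithelial surface. Their genes are known to respond to bacterial colonisation through MyD88 and to interleukin 22 (IL-22) through STAT3, and they are expressed by enterocytes as well as by PCs, most strongly towards the ileum. REG1 and REG2 were first described in the regenerating pancreas, and REG4 is found in secretory cells of the gut, including enteroendocrine cells and the deep crypt secretory cells of the colon.

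After TNF, Reg3g and Reg3b rose by 35.6-fold and 60.5-fold, Reg3a went from 7 counts in 3 PBS libraries to 828 counts in 4 TNF libraries, Reg4 fell by a factor of 1.76, and Reg1 was too low and too variable for a call. Before TNF, Reg4 supplied most of the family's transcripts. After TNF, Reg3g and Reg3b did, and their levels per length were among the 9 highest of 54749 annotated genes in every TNF library. Reg2 was not detected and Reg3d was barely detected in either group.

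All members but Reg4 lie together in the genome. These 6 genes span 98.2 kb of chromosome 6 (GRCm39, 78347640 to 78445859), in the order Reg3b, Reg3d, Reg3a, Reg2, Reg1 and Reg3g.

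The bases that precede the annotated transcription start were read for the 4 members whose level differed between the groups. The RefSeq promoter table (GRCm38.p6) matched all 7 members. Each line below gives 250 bases that end just before the start, 5′ to 3′ on the strand of the gene. They lie at chr6:78370635-78370884 (plus strand) for Reg3b, chr6:78468875-78469124 (minus strand) for Reg3g, chr6:78380459-78380708 (plus strand) for Reg3a and chr3:98221906-98222155 (plus strand) for Reg4. Capitals mark matches to TTCNNNGAA, the letters of STAT binding sites, to the kappaB motif of NF-kB, to TGANTCA, the AP-1 motif, all searched on both strands, and to TATAAA on the printed strand.
Reg3b: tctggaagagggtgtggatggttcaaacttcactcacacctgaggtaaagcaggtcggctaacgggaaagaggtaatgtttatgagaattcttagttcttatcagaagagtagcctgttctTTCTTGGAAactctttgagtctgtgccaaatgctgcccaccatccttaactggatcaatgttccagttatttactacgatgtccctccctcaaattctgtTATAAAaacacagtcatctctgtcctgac
Reg3g: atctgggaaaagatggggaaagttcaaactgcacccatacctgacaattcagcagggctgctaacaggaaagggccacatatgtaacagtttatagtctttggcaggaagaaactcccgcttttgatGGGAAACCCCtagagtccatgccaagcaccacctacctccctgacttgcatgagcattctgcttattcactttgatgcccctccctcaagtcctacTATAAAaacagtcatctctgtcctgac
Reg3a: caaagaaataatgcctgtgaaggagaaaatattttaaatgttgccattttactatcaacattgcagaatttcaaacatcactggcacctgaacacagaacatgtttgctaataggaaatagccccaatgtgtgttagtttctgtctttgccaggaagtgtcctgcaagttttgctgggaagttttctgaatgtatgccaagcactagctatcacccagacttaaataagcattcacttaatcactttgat
Reg4: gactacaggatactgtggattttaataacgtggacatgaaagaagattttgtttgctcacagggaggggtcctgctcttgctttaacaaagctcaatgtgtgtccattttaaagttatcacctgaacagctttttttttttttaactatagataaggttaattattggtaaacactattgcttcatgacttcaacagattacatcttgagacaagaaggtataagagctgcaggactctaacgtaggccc

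Reg3b held TTCTTGGAA from 129 bases before the start and Reg3g held a kappaB match, GGGAAACCCC, from 123 bases before it. Both had TATAAA, at 29 and 27 bases before the start, and the final 20 bases, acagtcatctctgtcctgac, were identical between them. Reg3b and Reg3g were identical at 70% of 247 aligned bases, Reg3g and Reg3a at 71.9% of 199, and Reg3a and Reg3b at 65.3% of 196. Such values were not limited to members that rose. Reg2, with 0 counts, and Reg3a were identical at 68.7%, and Reg1 and Reg3g at 63.4%. The lowest pair, Reg2 and Reg3g, had 53.4%. The printed windows of Reg3a and Reg4 held none of the 4 motifs. However, the run atgccaagcac began 57 bases before the Reg3a start and 105 bases before the Reg3g start. Set against that run, the bases that hold TATAAA in Reg3g would lie beyond the end of the Reg3a window. The windows therefore cannot tell whether the members that rose share a motif. Members that were not called or barely counted held matches too: TTCCCAGAA from 238 bases before the start of Reg3d, TGAGTCA from 117 bases before that of Reg1, and TATAAA from 30 bases before the starts of Reg1 and Reg2. Of 32851 mouse promoter windows of this length, 7.02% held TTCNNNGAA, 7.25% kappaB, 6.75% TGANTCA and 7.59% TATAAA. A match describes letters and not a bound site.

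Sequence likeness also bears on how reads were assigned. No stretch of 50, 75 or 100 bases from the canonical transcript of any member occurred in a transcript of another gene, and no other annotated gene overlapped a member. In the closest pairs among the REG3 genes, Reg3b with Reg3g and Reg3a with Reg3b, the best-matching windows of 75 bases still differed at 11 positions. Identity over aligned transcript bases was 72.8% for Reg3b and Reg3g, 73.1% for Reg3a and Reg3b, and 69.7% for Reg3a and Reg3g, whereas Reg4 reached 60.2 to 63.9% with the other members. The rule used for reads that match more than 1 place is not known.

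Depth was even, with 15511455 to 19193721 counts per library. Differential expression was tested with edgeR across 14329 genes, and differentially expressed genes (DEGs) are those with a Benjamini-Hochberg adjusted p under 0.05. Of all genes tested, 59.6% were DEGs (29.5% higher and 30.1% lower after TNF), so a call on its own sets no gene apart. Levels are given as CPM, counts scaled to 1e6 on library sizes corrected by TMM, the trimmed mean of M-values. The median log2 fold change over all genes was 0.0017, and it was -0.16 when libraries were scaled by total counts. Of the 7 Reg genes, 6 had at least 1 count, 5 passed the filter on low counts, 3 were higher and 1 was lower after TNF. Reg3a passed that filter only through its TNF libraries, where it is high, so it lends no support to the count of members. In bulk samples, fewer cells of a type and less RNA per cell cannot be told apart.

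Reg3g (ENSMUSG00000030017, GRCm39 chromosome 6, 78443246 to 78445859, minus strand) was the member with the highest level after TNF. It was counted 21520, 15068 and 10020 times in the PBS libraries and, in the TNF libraries, 450912, 551700, 545588 and 574561 times. On the CPM scale the 3 PBS values were 1330, 767 and 531, and the 4 TNF values were 25236, 32518, 29214 and 37599. Every TNF library lay above every PBS library, the lowest TNF value being 18.97 times the highest PBS value. The group means were 876 ± 410 CPM (SD, n = 3) and 31142 ± 5234 CPM (SD, n = 4), and their log2 difference in the fit was 5.15 ± 0.37 (SE, edgeR adjusted p = 5.87e-08).

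Reg3b (ENSMUSG00000071356, GRCm39 chromosome 6, 78347640 to 78350455, plus strand), which encodes the lectin directed mainly at Gram-negative bacteria, started lower and rose further. It had 4127, 2976 and 1481 counts after PBS, against 142299, 176824, 151926 and 192746 after TNF. The corresponding levels were 255, 152 and 78.5 CPM after PBS and 7964, 10422, 8135 and 12613 CPM after TNF. The groups were again apart in all libraries, with the lowest TNF value 31.2 times the highest PBS value. Means of 162 ± 88.7 CPM (SD over the 3 PBS libraries) and 9784 ± 2194 CPM (SD over the 4 TNF libraries) gave a fitted change of 5.92 ± 0.43 on the log2 scale (SE, edgeR adjusted p = 2.25e-07). The PBS libraries took the same order for Reg3b as for Reg3g, replicate 1 being highest and replicate 3 lowest.

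Reg3a (ENSMUSG00000079516, GRCm39 chromosome 6, 78357692 to 78360810, plus strand), the mouse gene that bears the name of the human AMP gene REG3A, was close to the detection limit after PBS. Its counts were 1, 5 and 1 in the PBS libraries and 260, 274, 133 and 161 in the TNF libraries. These counts correspond to 0.0618, 0.255 and 0.0530 CPM after PBS, and to 14.6, 16.2, 7.12 and 10.5 CPM after TNF. All TNF libraries exceeded all PBS libraries, although the PBS level rests on 7 counts in all. The log2 fold change was 6.49 ± 0.49 (SE, edgeR adjusted p = 1.05e-07) and also 6.49 with no filter on low counts, but it was 7.56 without PBS replicate 2, which held 5 of those 7 counts. Since the gene passed the filter through the group in which it is high, its p and its place among all genes are given as a description, and the SE intervals of Reg3a and Reg3b overlapped. By the size of the fold change, Reg3a, Reg3b and Reg3g took places 84, 95 and 139 from the top among 14329 genes.

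Reg4 (ENSMUSG00000027876, GRCm39 chromosome 3, 98129468 to 98144066, plus strand) went the other way. Its counts were 50409, 52477 and 38352 after PBS and 25265, 25741, 26066 and 24578 after TNF. As CPM, the PBS libraries had 3116, 2671 and 2034 and the TNF libraries 1414, 1517, 1396 and 1608. The groups did not overlap, but the gap was small, the lowest PBS value being 1.26 times the highest TNF value. Mean levels were 2607 ± 544 CPM (SD, n = 3) and 1484 ± 98.8 CPM (SD, n = 4), and the level fell by 0.81 ± 0.16 on the log2 scale (SE, edgeR adjusted p = 0.00061). Within these groups, 3 of the 4 tested Reg genes other than Reg3a had levels that did not overlap, against 60.7% of all genes tested (29.9% higher and 30.9% lower after TNF).

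Reg1 (ENSMUSG00000059654, GRCm39 chromosome 6, 78399694 to 78405828, plus strand), the pancreatic stone protein gene, was counted 3, 28 and 34 times after PBS and 12, 13, 10 and 6 times after TNF. Its level was 0.185, 1.43 and 1.80 CPM after PBS and 0.672, 0.766, 0.536 and 0.393 CPM after TNF. PBS replicate 1 lay below all TNF libraries while the other PBS libraries lay above them, so the groups overlapped. The log2 fold change was -0.94 ± 0.66 (SE) with an edgeR adjusted p of 0.234, and without PBS replicate 1 it was -1.43 with an adjusted p of 0.0557.

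The remaining members gave no fold change. Reg3d (ENSMUSG00000068341, GRCm39 chromosome 6, 78352857 to 78355848, minus strand) had 1 count in TNF replicate 1, 2 counts in TNF replicate 2 and 0 in the other libraries. Reg2 (ENSMUSG00000023140, GRCm39 chromosome 6, 78372606 to 78385089, plus strand) had 0 counts in all 7 libraries, which allows a level of up to 0.156 to 0.193 CPM per library, taking 3 counts as the limit and covering counting error only. Thus Reg3d lies between the strongly induced Reg3b and Reg3a, and Reg2 between Reg3a and Reg3g, with next to no counts of their own.

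**Figure D1:**
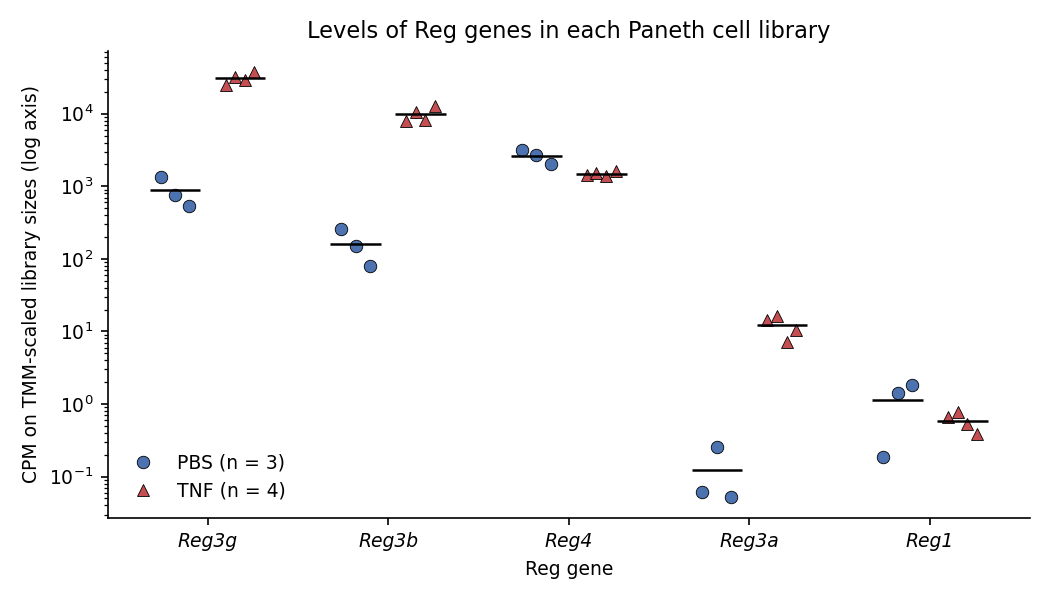
CPM on TMM-scaled library sizes (log axis) of the 5 tested Reg genes in the 3 PBS libraries (circles) and 4 TNF libraries (triangles), with horizontal lines at the group means. Reg3g, Reg3b and Reg3a lie higher in all TNF libraries, Reg4 lies lower in all of them, and the groups overlap for Reg1. Reg2 and Reg3d, with 0 and 3 counts in all, are not drawn.

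To compare the members with each other, CPM was divided by the length of the canonical transcript, which gives CPM per kb. After PBS the order was Reg4 (2538 ± 530, SD, n = 3), Reg3g (1126 ± 528), Reg3b (205 ± 112), Reg1 (1.2 ± 0.893) and Reg3a (0.149 ± 0.138). Reg1 and Reg3a were the only neighbours in this order whose library values overlapped. After TNF the order was Reg3g (40028 ± 6728, SD, n = 4), Reg3b (12400 ± 2781), Reg4 (1445 ± 96.2), Reg3a (14.7 ± 4.93) and Reg1 (0.624 ± 0.172), with no overlap between neighbours.

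These levels were high against the whole transcriptome. Ranked per kb among 54749 annotated genes, Reg3g took places 26, 28 and 31 in the PBS libraries and places 4, 5, 5 and 6 in the TNF libraries. Reg3b went from places 73, 124 and 231 to place 9 in all 4 TNF libraries. Reg4 moved little in rank, from places 17, 15 and 15 to places 21, 24, 22 and 23. Reg3a reached only places 2717 to 5252 after TNF.

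The family as a whole took 0.437, 0.384 and 0.322% of all counts in the PBS libraries and 3.75, 4.12, 3.77 and 4.36% in the TNF libraries. The 95% exact (Clopper-Pearson) interval was 0.434 to 0.440% for the highest PBS share and 3.74 to 3.76% for the lowest TNF share, and it covers counting error only. On average the share was 0.381 ± 0.0579% in PBS libraries (SD, n = 3) and 4.00 ± 0.294% in TNF libraries (SD, n = 4).

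The make-up of the family changed with its size. Per kb of transcript, Reg4 held 66.8 ± 6.14% of the family level in the PBS group (SD, n = 3) and 2.72 ± 0.317% in the TNF group (SD, n = 4). Reg3g went from 28.2 ± 4.87% to 74.4 ± 1.31% and Reg3b from 5.02 ± 1.39% to 22.9 ± 1.41%. Reg1, Reg3a and Reg3d together held the small rest, with Reg3a at 0.0279 ± 0.0112% after TNF. In each PBS library Reg4 had more counts than Reg3g, by 2.34, 3.48 and 3.83 times. In each TNF library Reg3g had more counts than Reg4, by 17.9, 21.4, 20.9 and 23.4 times. With the length of all annotated exons in place of the canonical transcript, the shares after PBS were 81.6% for Reg4, 14.4% for Reg3g and 3.92% for Reg3b, and those after TNF were 5.65, 64.2 and 30.1%, which leaves the order of the 3 genes as it was.

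**Figure D2:**
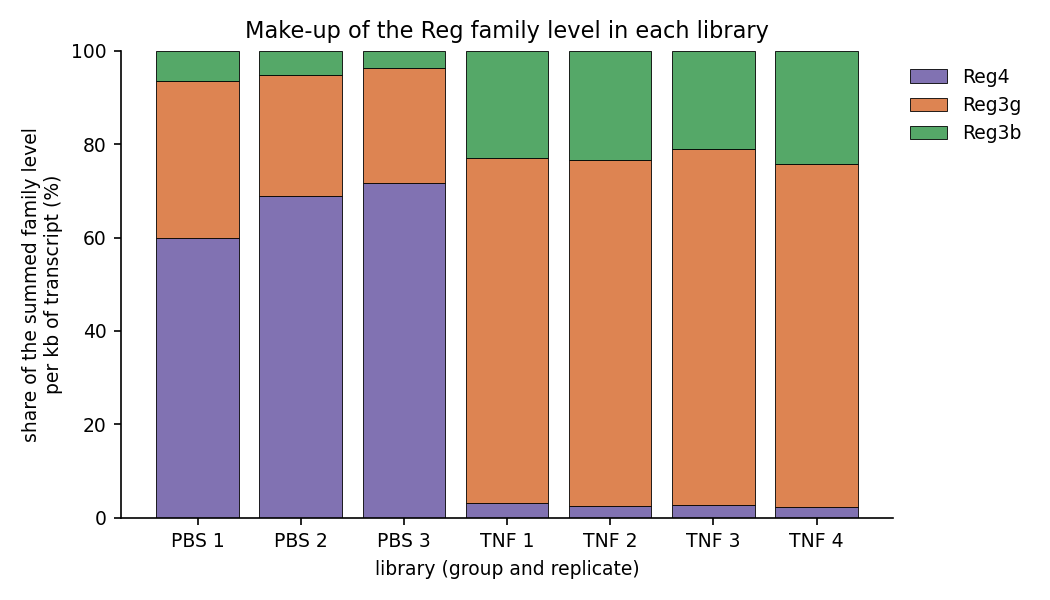
Share of the summed Reg family level per kb of transcript (%) held by Reg4, Reg3g and Reg3b in each of the 3 PBS and 4 TNF libraries. Reg4 holds 59.9 to 71.6% of each PBS bar and 2.38 to 3.13% of each TNF bar, and the other members are too low to be visible.

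Whether Reg3g and Reg3b rose by the same factor was tested with the ratio of their counts within each library, which does not depend on scaling. The PBS libraries had 5.21, 5.06 and 6.77 Reg3g counts per Reg3b count, and the TNF libraries had 3.17, 3.12, 3.59 and 2.98. The ratio was lower in all 4 TNF libraries than in any PBS library. Its mean went from 5.68 ± 0.942 (SD, n = 3) to 3.22 ± 0.263 (SD, n = 4), a log2 difference of -0.81. The two-sided exact permutation p was 0.0286, also after adjustment over the 3 ratios tested (Benjamini-Hochberg 0.0286), and it is the smallest that the 35 splits of 3 and 4 libraries allow. With group medians in place of means the exact permutation p was 0.0571. Reg3b thus rose by a larger factor than Reg3g, and Reg3g remained the more abundant of the pair.

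Reg3a followed Reg3b less tightly. It had 0.242, 1.68 and 0.675 counts per 1000 Reg3b counts after PBS and 1.83, 1.55, 0.875 and 0.835 after TNF, with overlap between the groups and with 1 to 5 Reg3a counts behind each PBS value.

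The Reg genes were also set against Lyz1, which encodes lysozyme, the most used PC marker, and which did not change detectably (log2 fold change 0.30 ± 0.32, SE, edgeR adjusted p = 0.444). Per 100 Lyz1 counts there were 1.14, 0.879 and 0.624 Reg3g counts after PBS and 28.0, 26.3, 27.7 and 24.2 after TNF. For Reg3b the values were 0.218, 0.174 and 0.0922 after PBS and 8.82, 8.43, 7.71 and 8.11 after TNF. Both ratios separated the groups without overlap, with log2 differences of 4.95 for Reg3g and 5.77 for Reg3b (two-sided exact permutation p = 0.0286 for each, the smallest possible). Within the TNF group the Lyz1 ratios were less spread than the CPM values, ranging from 7.71 to 8.82 for Reg3b where the CPM values ran from 7964 to 12613. Reg4 stood at 2.66, 3.06 and 2.39 per 100 Lyz1 counts after PBS and at 1.57, 1.23, 1.32 and 1.03 after TNF, again without overlap.

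**Figure D3:**
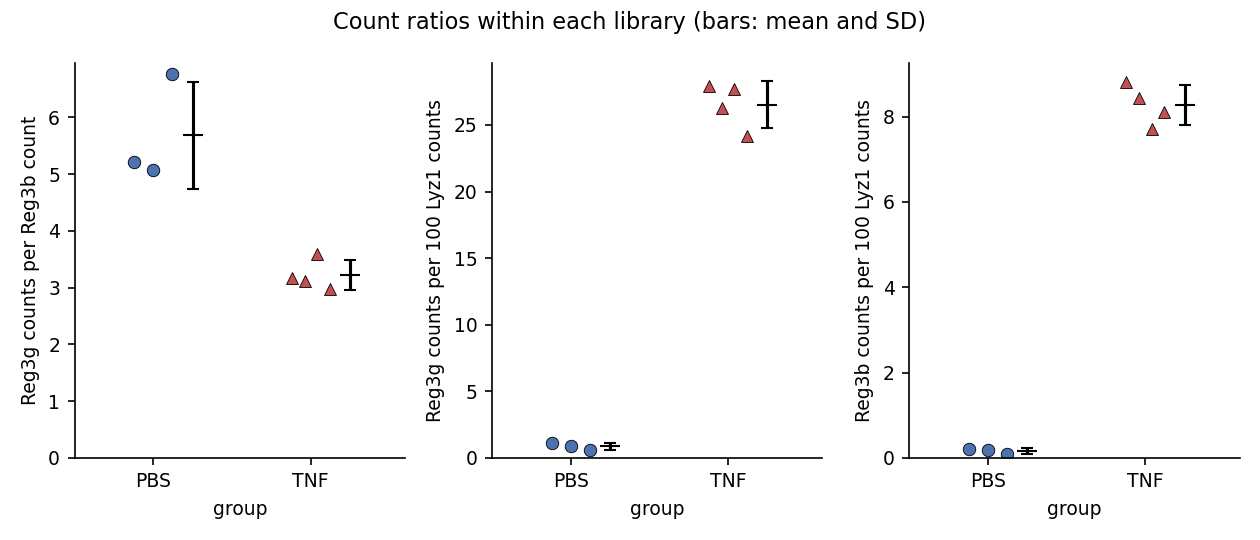
Count ratios within each library for the PBS group (circles, n = 3) and the TNF group (triangles, n = 4), with mean and SD beside the points: Reg3g per Reg3b count, and Reg3g and Reg3b per 100 Lyz1 counts. The first ratio lies between 5.06 and 6.77 after PBS and between 2.98 and 3.59 after TNF, and both Lyz1 ratios are higher in all TNF libraries.

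The direction of each tested Reg gene was the same under all other scalings, filters and tests and when any 1 library was left out. Reg3g ranged from 4.89 to 5.59, Reg3b from 5.59 to 6.41, Reg3a from 6.12 to 7.56 and Reg4 from -0.97 to -0.66 in log2 fold change, and Reg3g, Reg3b and Reg4 kept an adjusted p under 0.05 throughout. Reg1 ranged from -1.43 to -0.47 and was never called.

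**Figure D4:**
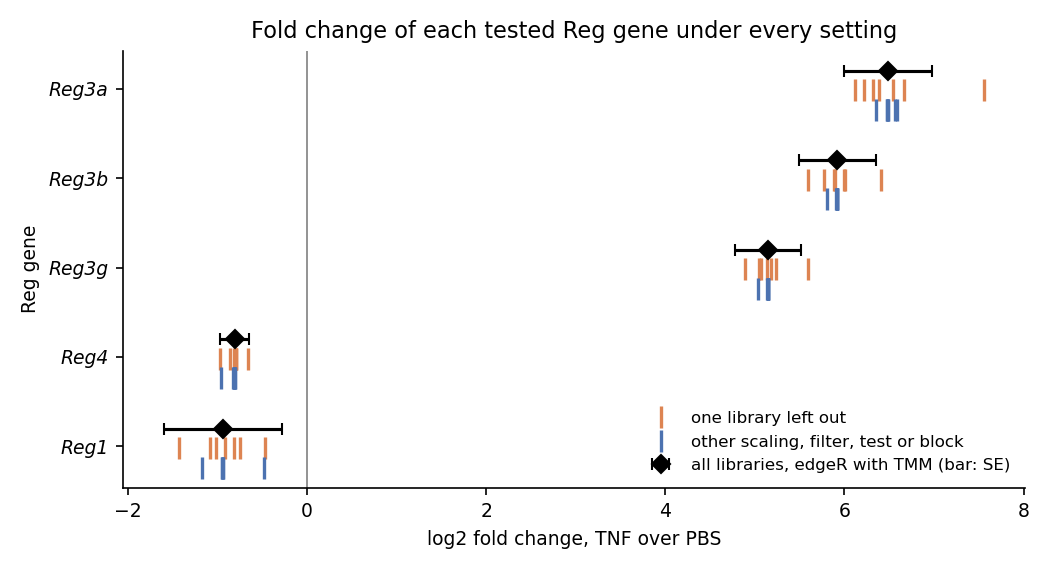
Log2 fold change (TNF over PBS) of the 5 tested Reg genes: diamonds with SE bars for the fit over all 7 libraries, orange ticks for fits that leave out 1 library, and blue ticks for other scalings, filters, tests and the replicate block. All ticks of a gene lie on its side of 0, and the largest shift is that of Reg3a without PBS replicate 2, from 6.49 to 7.56.

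Genes whose level was most like that of each member over the 7 libraries were found by Pearson's r of log2(CPM + 1) among 8431 genes whose mean was 10 CPM or more. Reg3g was closest to Wsb2 (r = 0.9994), Reg3b (0.9993) and Tpm4 (0.9989), and Reg3b to Litaf (0.9994), Reg3g (0.9993) and Urah (0.9991). Of the genes compared, 425 reached an r of 0.99 with Reg3g and 384 with Reg3b. Since the 7 points fall into the same 2 groups, a high r here mainly describes a gene that differs between the groups with little spread. For Reg3a the closest were Spindoc (0.9986), Zswim8 (0.9976) and Cacfd1 (0.9970), with 58 genes at 0.99 or above. Reg4 was closest to Slc48a1 (0.9950), C4b (0.9921) and Sik3 (0.9913) and had only 5 such genes. Reg1, whose pattern did not follow the groups, had 0, its nearest being Ccdc137 (0.9449), Daglb (0.9279) and Pik3c2a (0.9208).

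The receptors and signal carriers that are known to act upstream of the REG3 genes were measured in the same libraries. Counts and medians of these and the following lists are descriptions, since some genes passed the filter on low counts (0.551 CPM in 3 libraries) through the group in which they are high alone, as Reg3a did. These were Osmr, Tlr4, Lcn2, S100a9, Saa1, Saa3, Tac1 and Slc51b among genes higher after TNF in mean level, and Il1r1, Zg16, Sis, Apoa1, Apoa4, Capn9, Gip, Isl1, Gnat3, Ascl2 and Pdx1 among those lower, and others are not named here. Of 12 tested genes of the IL-22 and IL-6 family receptors and STAT3, 7 were higher, 3 were lower and 2 were not called, with a median log2 fold change of 0.51 against 0.0017 for all genes. Il22ra1, the epithelial chain of the IL-22 receptor, went from 70.3 ± 9.50 to 105 ± 15.5 CPM (log2 fold change 0.58 ± 0.13, SE, edgeR adjusted p = 0.00163). Stat3, the transcription factor downstream of it, went from 126 ± 30.1 to 361 ± 15.1 CPM (1.52 ± 0.14, adjusted p = 7.88e-07). Il22 itself, made by lymphoid cells, had 0 counts in all libraries.

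The largest rises in the same list were those of Osmr, Socs3 and Il6st. Osmr, which encodes the oncostatin M receptor, went from 0.184 ± 0.162 to 149 ± 20.7 CPM, with 10 counts in all PBS libraries together. Its partner chain gp130, encoded by Il6st, rose by 1.89 ± 0.11 on the log2 scale (SE, edgeR adjusted p = 8.59e-09), and Socs3, the feedback inhibitor induced by STAT3, rose by 4.37 ± 0.31 (adjusted p = 1.91e-06). Lifr and Tyk2 were among the 3 lower genes, with log2 fold changes of -1.42 and -1.07.

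Of 12 tested genes of Toll-like receptor and IL-1 adaptor signalling, a known route of Reg3g induction by bacteria, 6 were higher and 4 lower, with a median of 0.34. Myd88, the shared adaptor, rose from 19.7 ± 1.37 to 143 ± 12.1 CPM (log2 fold change 2.86 ± 0.12, SE, edgeR adjusted p = 3.4e-10). The receptor genes Tlr2 and Tlr4 had log2 fold changes of 4.72 and 4.97, and Tlr5, the flagellin receptor gene, was lower at -1.59. On the receiving side, Extl3, which encodes a reported REG receptor, stayed at 83.0 ± 9.61 and 84.3 ± 8.25 CPM (0.02 ± 0.11, adjusted p = 0.874), while Egfr rose from 39.4 ± 2.35 to 172 ± 11.8 CPM (2.12 ± 0.11, adjusted p = 2.37e-09).

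The Reg genes were not the only defence or lectin genes with large changes. Of 17 tested genes of the list named other secreted epithelial defence, 10 were higher and 2 lower (median 1.33). Of the 17, 4 had passed the filter through the TNF group alone, and not all encode secreted proteins. Among them, Lcn2, which encodes a siderophore-binding protein, went from 0.366 ± 0.279 to 364 ± 46.9 CPM, and Nos2, Duoxa2 and Duox2, which serve reactive nitrogen and oxygen production, had log2 fold changes of 7.68, 8.09 and 4.16. S100a9, a calprotectin subunit gene, had 0 counts in all PBS libraries and 399 in the TNF libraries together. The summed level of the 20 listed genes overlapped between the groups, with 28293 to 52854 CPM after PBS and 26576 to 48265 CPM after TNF. Of 11 tested galectins and other lectins, 2 were higher and 5 lower (median -0.54), and 2 were higher and 7 lower under scaling by total counts. Lgals9 and Lgals8, which encode galectins, rose by 1.49 and 1.07, and Zg16, a goblet cell lectin gene, Lgals2 and Clec2h had -4.59, -2.12 and -1.51. Itln1, which encodes the lectin intelectin 1 of PCs and goblet cells, went from 29880 ± 10680 to 20610 ± 5953 CPM and was not called (adjusted p = 0.14).

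**Figure D5:**
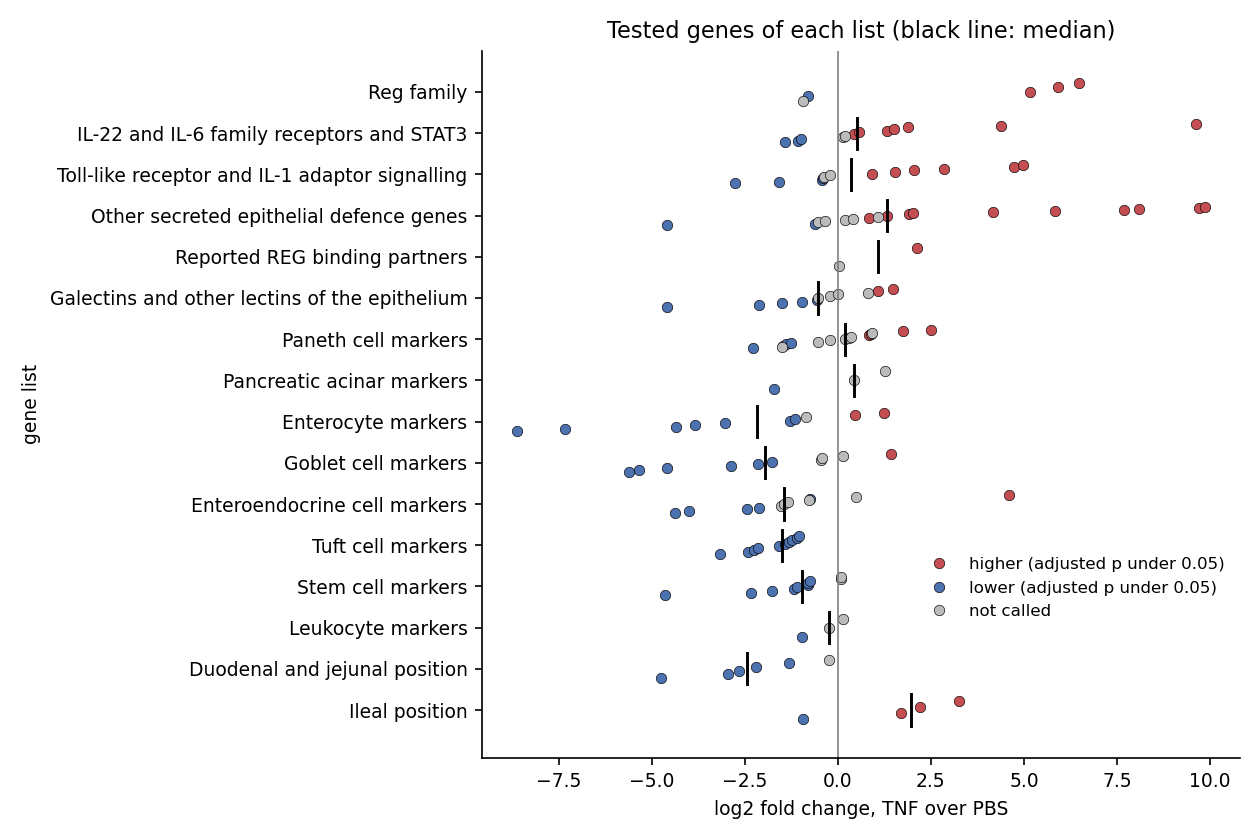
Log2 fold change (TNF over PBS) of the tested genes of the Reg family and of 15 gene lists, in red where higher, blue where lower and grey where not called (edgeR, adjusted p under 0.05), with a black line at the median of each of the 15 lists. Reg3a, Reg3b and Reg3g lie at 5.15 to 6.49, and the 10 tuft cell markers all lie below 0.

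Markers of other cells that express Reg genes were read beside these results. Of 10 tested enterocyte markers, 2 were higher and 7 lower. The summed level of all 12 listed was 806 to 989 CPM after PBS and 339 to 409 CPM after TNF, most of it from Vil1 (605 ± 39.1 and 273 ± 30.9 CPM), the gene of the brush border protein villin. Apoa1 and Apoa4, defining genes of mature enterocytes, had 8.53 ± 11.8 and 3.45 ± 4.38 CPM after PBS (SD, n = 3). Each had 1 count in all TNF libraries together, and Sis, the sucrase-isomaltase gene, was lower at -4.36. The higher genes were Slc5a1 (0.46, edgeR adjusted p = 0.00714) and Ada (1.23, edgeR adjusted p = 0.000948). Fabp1 was not called (-0.86, edgeR adjusted p = 0.251). The part of enterocytes in the levels of Reg3g and Reg3b was not tested. Of 10 goblet cell markers, 1 was higher and 6 lower, with Fcgbp (-5.62), Capn9 (-5.33), Zg16 (-4.59) and Tff3 (-2.14) among the lower and Spdef, a secretory lineage factor gene, the higher (1.44, adjusted p = 6.24e-05), with a summed level of 11509 to 20938 CPM after PBS and 9487 to 11015 CPM after TNF. Muc2, the main intestinal mucin gene (0.13, adjusted p = 0.637), Spink4 (-0.45, 0.172) and Agr2 (-0.42, 0.374) were not called. Of 11 tested enteroendocrine markers, 1 was higher and 5 lower, with summed levels of 52.9 to 126 and 59.1 to 90.1 CPM that overlapped between the groups. The higher gene was Tac1, the substance P gene, which went from 1.71 ± 1.25 to 41.1 ± 11.3 CPM and made up a large part of the TNF sums, while Gip went from 23.9 to 1.46 CPM, Chgb from 23.6 to 4.34 CPM and Isl1 from 2.54 to 0.113 CPM. The part of goblet and enteroendocrine cells in the lower level of Reg4 was not tested.

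Markers of position along the small intestine were taken from lists that were added in view of earlier results. Of 6 tested duodenal and jejunal genes, 5 were lower and 0 higher (median -2.43), with Pdx1 at -4.75, Gata4 at -2.94 and Cyp2c65 at -2.66. Of 4 tested ileal genes, 3 were higher and 1 lower (median 1.96), with the bile acid transporter gene Slc51b at 3.26, Hoxb9 at 2.22, Hoxb8 at 1.70 and Osr2, the lower gene, at -0.94. Of the 6 ileal genes that did not pass the filter, Slc10a2 was counted 0 times in the PBS libraries and 34 times in the TNF libraries and Fgf15 2 and 5 times, while Fabp6 (39 and 2), Cubn (136 and 0), Slc51a (27 and 0) and Hoxa10 (7 and 0) had fewer counts in the TNF libraries. Their part in the levels of Reg3g and Reg3b was not tested.

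Leukocytes and pancreas were represented by few reads. Cd3e, Nkg7 and Il22 had 0 counts in all libraries, and the 10 leukocyte markers summed to 24.8 to 32.0 CPM after PBS and 12.8 to 25.2 CPM after TNF. Of the 3 that were tested, Ptprc was lower (-0.95). Of 16 pancreatic acinar markers, looked at because Reg1, Reg2 and the REG3 genes are also expressed in pancreas, 11 had 0 counts everywhere, including Cpa1, Cela2a, Pnlip and the transcription factor gene Ptf1a. The list summed to 31.6 to 41.5 CPM after PBS and 13.8 to 16.9 CPM after TNF, most of it from Pnliprp1, which was lower after TNF (-1.72). Their part in the levels of the Reg genes was not tested.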

How the data were processed

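RNA of sorted PCs was sequenced on the AVITI platform of Element (single-end). The submitters' processing notes name FastQC, Trimmomatic 0.39, STAR 2.7.10a, DESeq2 and the builds mm10 and mm39, with no role or order. The sources used here do not give the counting program, its annotation or its strand setting. The authors deposited raw counts per gene, with 1 column per library. Symbols, coordinates and canonical transcript lengths came from GENCODE M39 (GRCm39) by identifier and covered 98.8% of the 55414 identifiers, which need not be the annotation that was used to count.

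TNF was compared with PBS over all 7 libraries with edgeR 4.0.16 in R 4.3.3 (robust quasi-likelihood test, two-sided, TMM scaling, filterByExpr, no covariates, Benjamini-Hochberg over 14329 genes). Count ratios were compared by an exact permutation test on log2 ratios. The alternatives were DESeq2 1.42.0, other scalings and filters, the replicate number as a block, and fits without each library. On simulated counts (13731 genes), 100, 83.7, 88 and 100% of genes with a true log2 fold change of -3, -1, 1 and 3 were called, and 0.0887% of unchanged genes. Those counts had the same dispersion for all genes, no library scaling factors and only 47 to 50 changed genes at each fold change. The real data had 59.6% DEGs, so these rates need not hold for the fit reported here. Within groups, every pair of libraries differed by more than sampling noise (15.7 or more in chi-square over degrees of freedom).

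The members and the 15 gene lists were chosen with earlier results of these data known, and lists are given as counts and medians without a set test. Some leukocyte and pancreatic markers are not reported here and were left out of their lists. All 7 Reg genes are named. From each list, the text names up to 3 called genes with the largest change in size (mean of at least 1 CPM). It also names Il22ra1, Il6st, Osmr, Stat3, Socs3, Myd88, Extl3 and Lyz1, and other list genes chosen after their values were seen. For each tested Reg gene, the 3 genes of highest r are named. Dixon's limit of 0.829 was used to find TNF libraries far from the rest of their group. The 1 alternative added after the data were seen was the transcript length.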

Additional observations from a re-analysis of the deposited data

Results flagged for a closer look

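In the TNF group, 64 values of Reg genes, list genes and ratios were checked for a library far from the other 3, and 7 were found. None of the 7 was a Reg gene or a Reg ratio. The limit gives about 1 in 20 by chance for normally spread values. That rate does not apply to counts near 0, such as those of Apoa1, Apoa4 and Isl1. In TNF replicate 1, the enterocyte genes Apoa1 and Apoa4 stood at 0.0560 CPM each, which is 1 count, against 0 in the others. The same library had 5.37 CPM of Gip, a hormone gene, against at most 0.482, and 0.392 CPM of Isl1, an enteroendocrine transcription factor gene, against at most 0.0589. It was below the others for Hoxb9 (40.5 against 45.7 to 46.5 CPM) and for the stress gene Nupr1 (998 against 1472 to 1484 CPM). TNF replicate 3 had 189 CPM of Egfr against 164 to 168. Without TNF replicate 1 the DEGs numbered 8625, and Reg3g, Reg3b and Reg4 were called as before.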

How the results depend on the processing

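The 8543 DEGs became 7131 to 9080 under 14 alternatives, and 7663 to 8625 when 1 library was left out. Scaling by total counts gave 3142 higher and 4614 lower genes in place of 4229 and 4314. No Reg gene changed sign or crossed the threshold. List medians were recomputed only with total-count scaling and DESeq2 size factors, and none changed sign. Reg1 has 13 alternatives, since the stricter filter (1 CPM or more in 3 libraries) removed it. The family share of counts was 0.522% after PBS and 5.30% after TNF when alpha-defensins and Lyz1 were taken out of the total.

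The 3 count ratios, Reg3g to Reg3b, Reg3g to Lyz1 and Reg3b to Lyz1, kept their direction under every alternative, and only with 1 count added to both terms did they keep the p of 0.0286. With medians the log2 differences were -0.73, 4.94 and 5.57 (exact permutation p = 0.0571). Without 1 library they ran from -0.89 to -0.68, from 4.73 to 5.16 and from 5.41 to 6.03, with exact p of 0.0667 or 0.1, the smallest that so few libraries allow. With the replicate block they were -0.78, 5.0 and 5.78 (exact sign-flip p = 0.25, the smallest that 3 pairs allow). Same-numbered libraries did not deviate together (correlations -0.398, -0.047 and -0.227), so the numbers are taken as names only. In edgeR the replicate block gave 7131 DEGs and kept the calls of Reg3g, Reg3b and Reg4, the last at -0.83 (adjusted p = 0.0153).

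The PBS level of Reg3a rests on 7 counts, and Reg1 had 106 counts in all with a wide spread between PBS libraries. Strand use and multi-mapping rules are unknown, and dates of sorting are not given, so a batch could not be examined.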

Other observations

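Of 15 PC markers other than the Reg genes, 4 were higher and 4 lower (median 0.19), and under scaling by total counts 5 were higher and 6 lower. Defa22, an alpha-defensin gene, rose from 5787 ± 2435 to 19604 ± 5913 CPM (SD, n = 3 and 4, log2 fold change 1.76 ± 0.33, SE, edgeR adjusted p = 0.000465). The other listed alpha-defensin genes were not called: Defa24 (-0.20, adjusted p = 0.606), Defa17 (-1.51, adjusted p = 0.134) and Defa5 (0.91, adjusted p = 0.0587). How reads shared between alpha-defensin genes were counted is not known. Mmp7, the matrilysin gene of PC granules, rose by 0.88 ± 0.21 (adjusted p = 0.00223), and Xbp1 rose by 0.85 ± 0.18 (adjusted p = 0.00098). Nupr1, a stress gene, rose by 2.49 ± 0.22 (adjusted p = 6.43e-07). Clps, which encodes colipase, had a log2 fold change of -2.27 ± 0.43 (adjusted p = 0.00263), and Gfi1, Pnliprp2 and Habp2, the other lower genes, had -1.48, -1.39 and -1.26.

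All 10 tuft cell markers were lower (median -1.51), with a summed level of 1685 to 2790 CPM after PBS and 349 to 880 CPM after TNF. Dclk1, a kinase gene used to mark tuft cells, had 659 and 149 CPM, and Gnat3, Trpm5 and Dclk1 had log2 fold changes of -2.40, -2.26 and -2.14. Of 10 stem cell markers, 8 were lower and 0 higher (median -0.95), with summed levels of 4019 to 5267 and 2390 to 3186 CPM, and Ascl2, Lgr5 and Axin2 had log2 fold changes of -4.65, -2.32 and -1.78.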
